A study of Mus musculus with 50 samples.

Results

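The 10 genes described here are members and targets of the BMP and Nodal signalling pathways in mouse embryonic stem cells: Id1, Id2, Id3, Smad6, Smad7, Lefty1, Lefty2, Nodal, Tdgf1 and Skil. They were chosen by name, as the rows of the deposited expression table whose RefSeq transcript belongs to one of these genes, and all 10 of 10 were listed among 19455 genes. Each was represented by 1 transcript, and no other gene carried identical values. BMP and Nodal are secreted ligands of the TGF-beta family. Nodal signals with the help of the co-receptor encoded by Tdgf1 (Cripto) through Smad2 and Smad3, and switches on its own secreted inhibitors Lefty1 and Lefty2. BMP signals through Smad1 and Smad5 and switches on the Id genes, whose products bind E proteins and keep them off DNA and which are known to hold back differentiation of embryonic stem cells grown in serum. Smad6 and Smad7 are inhibitory Smads, and Skil (SnoN) is a repressor that binds Smad complexes.

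RNA was measured by 3′ end poly(A) RNA-seq in cells of the KH2 line, an embryonic stem cell line of C57BL/6 x 129/Sv background. Every group grew in a serum and LIF medium on gelatin for 48 h. The medium was then changed for one with actinomycin D at 5 µM, an inhibitor of transcription, and cells were collected at 0, 4 and 8 h. WT cells were compared with cells lacking Ythdf1 (Ythdf1_KO), Ythdf2 (Ythdf2_KO), Ythdf3 (Ythdf3_KO) or all 3 genes (Triple_KO); these genes encode readers of N6-methyladenosine (m6A) in mRNA, and the study asked whether the readers stand in for each other. Each of the 5 genotypes had replicates A and B, with 2 duplicate libraries per replicate at 0 h and 8 h and 1 at 4 h, giving 50 libraries in groups of 4, 2 and 4.

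Levels are given in FPM, reads scaled to the total of the library and given per 1e6 reads, and 1 read was worth 0.427 to 1.25 FPM in libraries of 796921 to 2341410 reads. How many clones stood behind each knockout was not given in the sources used here, nor whether A and B were separate cultures. The p-values therefore measure the spread between these samples only, and for each gene that spread is estimated together with genes of like level. Reads at the 3′ end did not check the knockouts: at 0 h Ythdf1 stood at 56.9 ± 5.92 FPM in Ythdf1_KO against 57.2 ± 8.05 in WT, and Ythdf3 at 23.8 ± 3.59 FPM in Ythdf3_KO against 23.2 ± 7.98 in WT (SD, n = 4 libraries each). Ythdf2 stood at 33.1 ± 4.2 FPM in Ythdf2_KO and at 86.2 ± 11.4 in Triple_KO, against 51.5 ± 7.69 in WT. The edited part of each gene is not given in the labels, and the groups are called by their labels. Of 8 stem cell markers, Pou5f1 stood at 845 ± 56 FPM and Sox2 at 129 ± 4.65 in WT at 0 h, while Nanog was near the floor at 2.2 ± 1.51 FPM.

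Short stretches of the transcripts are shown first. The first lines hold transcripts that were almost gone after 8 h of actinomycin D (Id2, Nodal) and ones that were still read at a high level (Lefty2, Tdgf1). In their 3′ UTRs Nodal, Lefty2 and Tdgf1 each hold ATTTA 1 time and Id2 holds it 3 times. A link between these letters and decay was not tested. Each line is a stretch of 29 bases of the 3′ UTR in the sense direction (GENCODE M21, GRCm38), with the pentamer ATTTA in capitals, the core letters of AU-rich elements that are known to shorten the life of many mRNAs.
Id2: tgtgataccgttATTTAtgagagactttc
Nodal: atatatatatgtATTTAtttttgatgcca
Lefty2: tttgcccatgtcATTTAttgtcagagctt
Tdgf1: gaggtactgggaATTTAaaagctaagttc
They lie at chr12:25094355-25094383 on the minus strand, chr10:61424943-61424971 on the plus strand, chr1:180898801-180898829 on the plus strand and chr9:110939943-110939971 on the minus strand.

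The second set shows the last 30 coding bases of the 2 Lefty genes, stop codon included, because reads of these neighbours on chromosome 1 must be told apart. Positions that differ between them are in capitals, 7 of 30.
Lefty1: gcgctcatacccaggAggCtGCaGcCAtag
Lefty2: gcgctcatacccaggGggAtAGaTcTGtag
They lie on the plus strand at chr1:180937946-180937975 and chr1:180897784-180897813 (GRCm38). The coding sequences were identical at 1020 of 1109 aligned positions (92%), while the last 500 bases of the transcripts, where 3′ end reads fall, were identical at 50.2%. Of the 470 overlapping 31-base words in the last 500 bases of Lefty1, 30 (6.38%) also occur in Lefty2, and for Id1, Id2, Id3, Smad6, Smad7, Tdgf1 and Skil the number shared with any other gene was 0. It was 5 for Lefty2 and 3 for Nodal. No exon of another gene in GENCODE M21 lay over the last 500 bases of any member on either strand.

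The 10 genes covered a wide range of levels in WT at 0 h. Tdgf1 was read most, at 334 ± 17.9 FPM, followed by Lefty2 at 175 ± 14 and Nodal at 94.7 ± 6.54 (SD, n = 4 libraries). These 3 did not overlap in any library of WT. Id3 (34.5 ± 3.56 FPM), Smad7 (28.6 ± 7.44), Id1 (23.6 ± 3.11), Lefty1 (18.9 ± 7.82) and Id2 (15.2 ± 2.67) formed a middle group in which Smad7 overlapped both Id3 and Id1, and Lefty1 overlapped all the others but Id3. Skil (6.75 ± 3.35 FPM) and Smad6 (2.15 ± 0.345) were lowest. The reads come from the 3′ end and were not divided by length, so the order describes reads and not molecules. Smad6 held at most 9 reads in any library, did not reach 5 FPM in 2 replicate means and was left out of the tests, so that 9 of 10 members were tested.

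**Figure D1:**
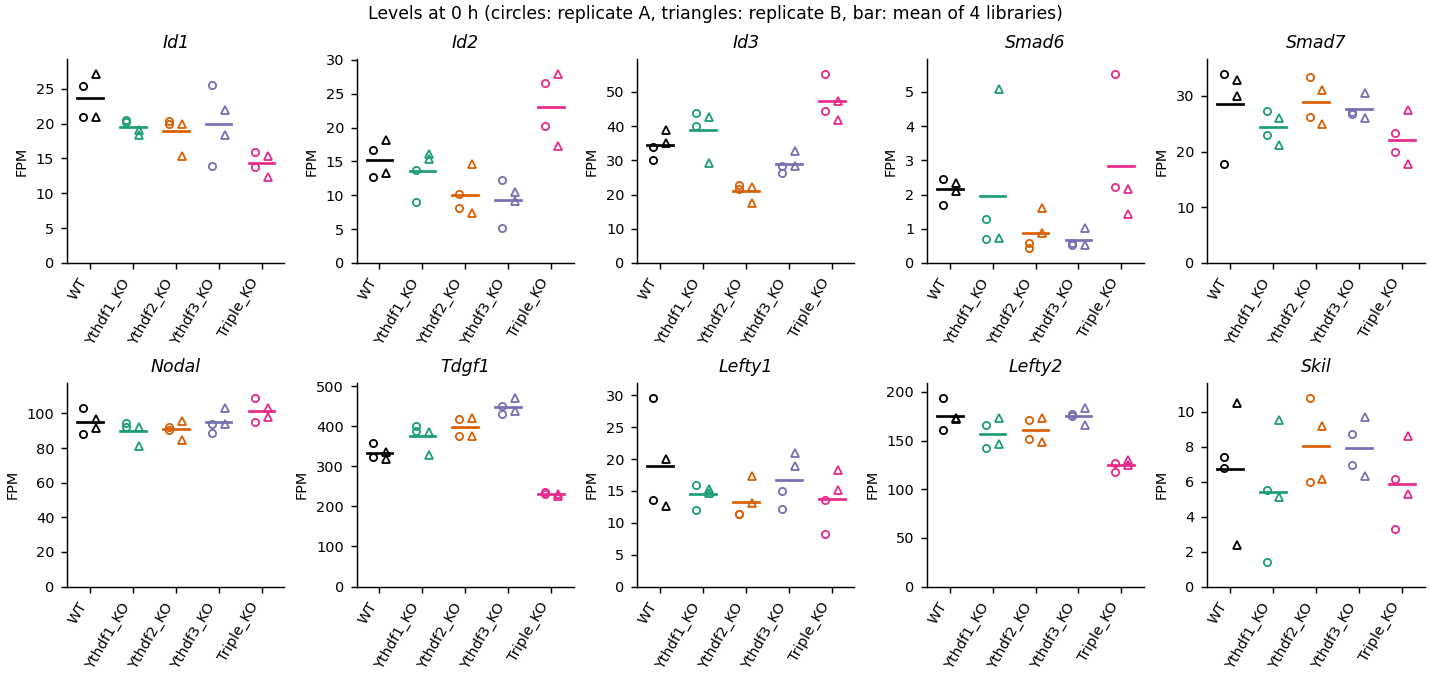
Level of each gene at 0 h in FPM (vertical axis, linear, from 0) in the 5 genotypes (horizontal axis); each point is 1 library and each bar the mean of 4. Tdgf1 and Lefty2 were lowest in Triple_KO, at means of 231 and 125 FPM, Id3 was highest there at 47.2 FPM, and Nodal stayed between 80.9 and 109 FPM in all 20 libraries.

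The comparison of each knockout with WT at 0 h asked whether these mRNAs stood at other levels in cells labelled as lacking 1 reader, or all 3, before treatment. No gene moved the same way in every knockout with a call in each. Of the 9 members tested with limma (adjusted p under 0.05 over all genes tested), 0 were called in Ythdf1_KO, where 2.62% of all genes were called, 2 in Ythdf2_KO (8.20% of all genes), 1 in Ythdf3_KO (4.46%) and 4 in Triple_KO (21.9%). In Ythdf1_KO, 2 members, Lefty2 and Tdgf1, had an unadjusted p under 0.05, edgeR called 0, and 1215 of 8697 genes had an unadjusted p under 0.05. The median change of the 9 members was -0.17, -0.12, -0.012 and -0.33 on the log2 scale in Ythdf1_KO, Ythdf2_KO, Ythdf3_KO and Triple_KO, beside 0.019, -0.025, -0.011 and 0.071 for all genes. All 4 comparisons share the WT libraries. Where the libraries of 2 groups are said not to overlap, the 4 of each group are duplicates of 2 replicates. The share of all genes that separate in this way was not computed. Since all values are relative to the library total in a mixed population, fewer cells of a type and less RNA per cell cannot be told apart. Changes are given as log2(FPM + 1) differences with their standard errors.

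Nodal, the ligand, did not pass the test in any knockout. Its libraries at 0 h read 103, 87.9, 96.5 and 91.6 FPM in WT and 95.1, 109, 103 and 97.8 FPM in Triple_KO, and the groups overlapped. The change was 0.095 ± 0.095 in Triple_KO, with an interval from -0.091 to 0.28 (limma adjusted p = 0.5264), and between -0.075 and 0.0033 in the single knockouts.

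Tdgf1, the co-receptor, moved in opposite directions in single knockouts and in Triple_KO. In WT its 4 libraries read 323, 358, 335 and 318 FPM. In Ythdf1_KO they read 388, 401, 328 and 385 FPM, in Ythdf2_KO 376, 417, 421 and 376, and in Ythdf3_KO 430, 451, 438 and 471. All libraries of Ythdf2_KO and Ythdf3_KO lay above all of WT, while those of Ythdf1_KO overlapped it at 1 library. In Triple_KO they read 237, 231, 227 and 230 FPM, all below every other library at 0 h, and the mean was 69.3% of that of WT. Tdgf1 rose by 0.25 ± 0.054 in Ythdf2_KO (limma adjusted p = 0.0002387) and by 0.42 ± 0.054 in Ythdf3_KO (adjusted p = 5.574e-11), and fell by 0.52 ± 0.054 in Triple_KO (adjusted p = 1.666e-17). In Ythdf1_KO its change was 0.17 ± 0.054 (adjusted p = 0.06643), and without Ythdf1_KO replicate B it was 0.24 and passed the test. In a fit that took the libraries of all times together, the call in Ythdf2_KO was lost (adjusted p = 0.07837) and those in Ythdf3_KO and Triple_KO were not.

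Lefty1 and Lefty2 are secreted inhibitors of Nodal and its targets. Lefty2 read 161, 194, 172 and 173 FPM in WT and 118, 127, 125 and 130 FPM in Triple_KO, so that every Triple_KO library lay below every WT library. It fell by 0.48 ± 0.075 in Triple_KO (limma adjusted p = 3.287e-08), and its changes in the single knockouts lay between -0.16 and 0.0066 and did not pass the test. Lefty1 read 13.6, 29.6, 20 and 12.6 FPM in WT and 13.5, 8.3, 15.1 and 18.3 FPM in Triple_KO, and these groups overlapped. Its change in Triple_KO was -0.40 ± 0.23 (adjusted p = 0.214), and -0.86 in replicate A but 0.062 in replicate B. The interval, from -0.84 to 0.044, holds the value of Lefty2, so a change of that size in Lefty1 was neither detected nor excluded.

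The 3 Id genes, targets of BMP, did not move together. Id1 read 21, 25.4, 27.1 and 21 FPM in WT and 15.9, 13.8, 12.4 and 15.4 FPM in Triple_KO, without overlap. It fell by 0.67 ± 0.20 in Triple_KO (limma adjusted p = 0.007083), and without Triple_KO replicate B the change was -0.62 and no longer passed, nor did Id1 in the fit on all times (adjusted p = 0.5112). In the single knockouts Id1 had changes between -0.31 and -0.26, none past the test. All libraries of Ythdf1_KO and Ythdf2_KO also lay below all of WT, while those of Ythdf3_KO overlapped it. A lack of overlap with WT was therefore not particular to Triple_KO.

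Id3 read 30.2, 33.8, 38.9 and 35 FPM in WT, 21.7, 22.7, 17.5 and 22.2 FPM in Ythdf2_KO and 55.2, 44.3, 47.5 and 41.9 FPM in Triple_KO. Ythdf2_KO lay wholly below WT and Triple_KO wholly above it. Id3 fell by 0.69 ± 0.15 in Ythdf2_KO (limma adjusted p = 0.0005333) and rose by 0.44 ± 0.15 in Triple_KO (adjusted p = 0.02633). In the fit on all times neither passed (adjusted p = 0.7634 and 0.6907). The rise in Triple_KO did not pass with edgeR (adjusted p = 0.05901), nor without WT replicate A (0.34), Triple_KO replicate A (0.37) or Triple_KO replicate B (0.51).

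Id2 read 16.7, 12.7, 18.2 and 13.3 FPM in WT, 5.23, 12.3, 10.5 and 9.17 FPM in Ythdf3_KO and 20.2, 26.6, 17.3 and 27.9 FPM in Triple_KO. Ythdf3_KO lay below WT in every library, and Triple_KO overlapped WT at 1 library. The changes were -0.58 ± 0.24 in Ythdf2_KO (limma adjusted p = 0.127), -0.69 ± 0.24 in Ythdf3_KO (adjusted p = 0.06677) and 0.56 ± 0.24 in Triple_KO (adjusted p = 0.07931), so Id2 did not pass the test against WT in any knockout.

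Smad7, an inhibitory Smad induced by both branches, ranged from 17.7 to 33.9 FPM in WT and from 17.8 to 27.5 in Triple_KO, with a change of -0.33 ± 0.17 (limma adjusted p = 0.1661). Skil, the Smad repressor, ranged from 2.35 to 10.5 FPM in WT, and its changes lay between -0.33 and 0.32 with standard errors of 0.32. Neither passed the test in any knockout. Smad6 was listed at 1.69 to 2.47 FPM in WT, 0.451 to 1.62 in Ythdf2_KO, 0.526 to 1.02 in Ythdf3_KO and 1.44 to 5.52 in Triple_KO. Its Ythdf2_KO and Ythdf3_KO libraries lay below those of WT, at few reads and with no test.

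**Figure D2:**
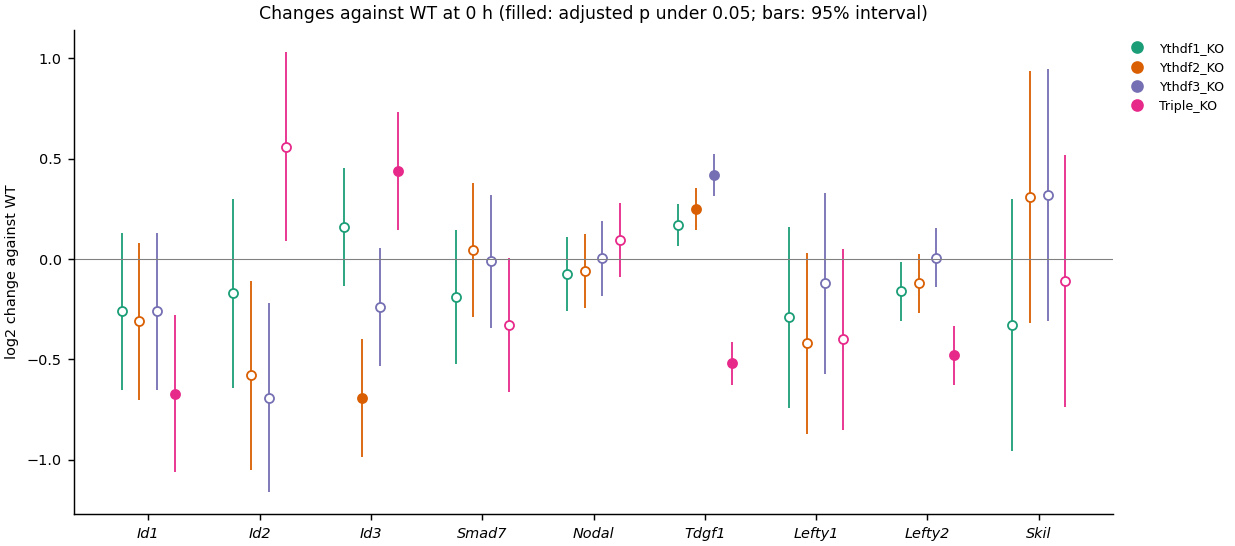
Log2 change against WT at 0 h (vertical axis) for the 9 genes tested (horizontal axis) in the 4 knockouts; bars are 95% intervals and filled points passed the test. Tdgf1 was above 0 in the 3 single knockouts (0.17, 0.25 and 0.42) and below 0 in Triple_KO (-0.52), and Id3 was below 0 in Ythdf2_KO (-0.69) and above 0 in Triple_KO (0.44).

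Triple_KO was also compared with the mean of the 3 single knockouts at 0 h, a comparison added after the values at 0 h had been seen. Of the 9 members, 4 were called, where 23.0% of all genes were. Tdgf1 fell by 0.81 ± 0.044 (limma adjusted p = 3.527e-48) and Lefty2 by 0.39 ± 0.062 (adjusted p = 3.376e-08). Id2 rose by 1.04 ± 0.19 (adjusted p = 3.505e-06) and Id3 by 0.70 ± 0.13 (adjusted p = 1.686e-06). All 4 had the same sign in replicates A and B. In the fit on all times Id2 (adjusted p = 0.1748) and Id3 (adjusted p = 0.2305) did not pass. Id1 had a change of -0.40 ± 0.16 (adjusted p = 0.06107) and passed with edgeR (adjusted p = 0.0206).

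Markers of other cell types differed between WT and Triple_KO at 0 h, and their part in these results was not tested. The summed level of 6 trophectoderm markers was 106 to 122 FPM in WT and 246 to 276 in Triple_KO, carried by the keratins Krt8 (75.4 ± 5.32 against 145 ± 12.2 FPM) and Krt18 (34.4 ± 3.83 against 101 ± 5.28), while the defining gene Elf5 was at 0 in both and Cdx2 was at 1.02 ± 0.367 and 4.26 ± 1.41 FPM (SD, n = 4 libraries). The sum of 9 fibroblast markers was 115 to 124 FPM in WT and 203 to 253 in Triple_KO, mostly Acta2 (73.3 ± 6.64 against 131 ± 7.58 FPM). Col1a1 (16.2 ± 5.07 against 38.4 ± 5.27 FPM), Col1a2 (7.58 ± 3.17 against 15.1 ± 3.06) and Thy1 (9.76 ± 2.1 against 18.9 ± 4.91) were higher too. Col3a1 was also higher but near the floor, Postn, S100a4 and Dcn overlapped, and Lum was at 0 in both. The sum of 8 stem cell markers was 2300 to 2440 FPM in WT and 1950 to 2050 in Triple_KO. Pou5f1 (845 ± 56 against 707 ± 15.1 FPM), Dppa5a (783 ± 22.8 against 612 ± 23.9) and Esrrb (248 ± 18.9 against 197 ± 10.9) carried that difference. The libraries of Sox2, Zfp42, Klf4, Utf1 and Nanog overlapped between WT and Triple_KO. Krt8 and Krt18 are also read in the WT stem cells. In the single knockouts the trophectoderm sums were 165 to 186 FPM in Ythdf1_KO, 159 to 180 in Ythdf2_KO and 58.2 to 71.5 in Ythdf3_KO. The sums for primed epiblast, mesendoderm, endoderm and neural markers had means of 47.6, 6.65, 270 and 45 FPM in WT at 0 h, and of 57.2, 10.9, 293 and 52.9 FPM in Triple_KO.

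The time course with actinomycin D asked how fast each mRNA was lost once transcription was blocked. A decay value is the log2 level at 8 h minus that at 0 h, both relative to the library total. In WT all 9 members tested fell by 8 h, where 55.2% of all genes were lower. That share depends on the scaling: 5007 genes were lower and 157 higher, against 1137 and 2634 with median scaling and 2147 and 1929 with edgeR. The members lay in a fast and a slow group. Lefty1 (-3.49 ± 0.47), Nodal (-3.26 ± 0.27), Id2 (-2.78 ± 0.54), Id3 (-2.71 ± 0.39), Smad7 (-2.61 ± 0.39), Id1 (-2.38 ± 0.44) and Skil (-2.21 ± 0.56) lay far below the median of all genes, -0.81. Lefty2 (-0.82 ± 0.12) and Tdgf1 (-0.69 ± 0.076) lay at that median. Among 9078 genes, 0.231% had a lower decay value than Lefty1, 0.441% than Nodal and 49.5% than Lefty2. These ranks also depend on the level at 0 h. With 1 FPM added, a gene near the filter of 5 FPM cannot fall as far as Lefty1 or Nodal even if wholly lost. Adjusted p-values for the WT falls (limma) ran from 1.969e-16 for Nodal to 0.0006991 for Skil.

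**Figure D3:**
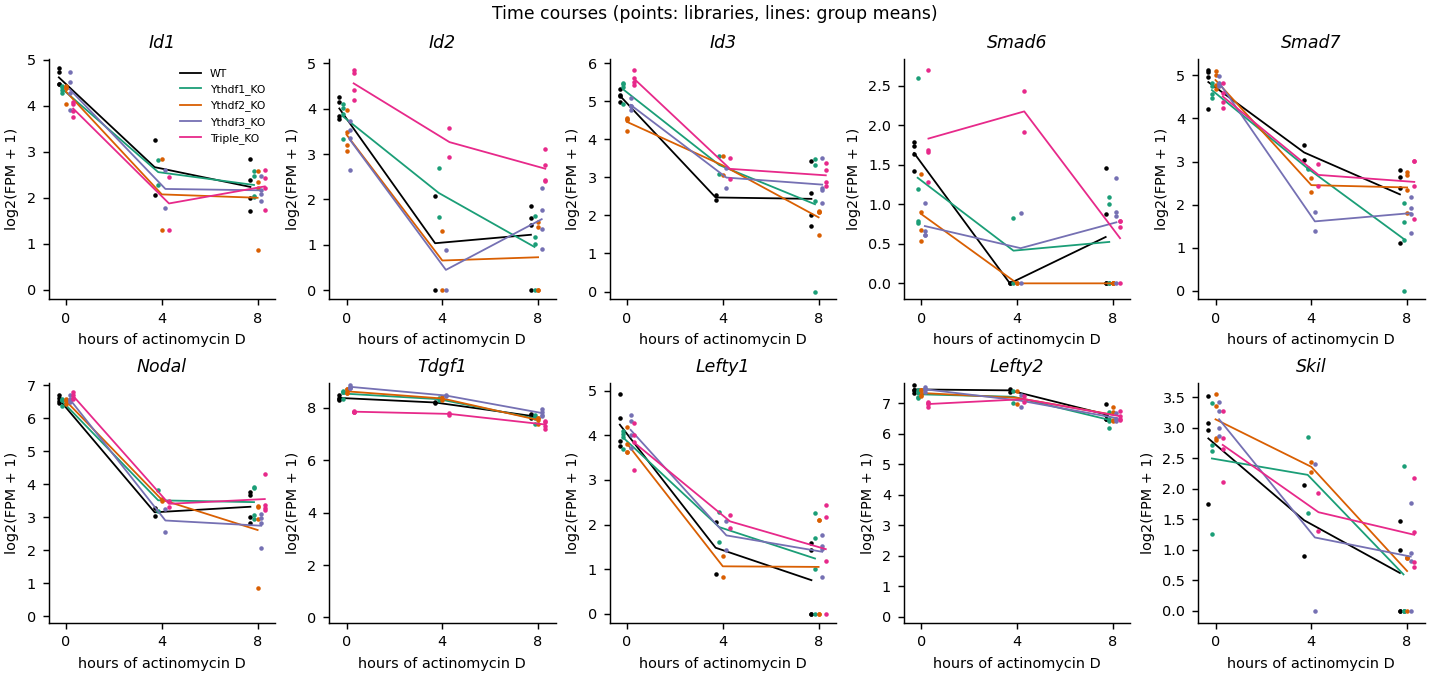
Time courses of the 10 genes: log2(FPM + 1) (vertical axis) against hours of actinomycin D (horizontal axis), with 1 point per library and a line through the group means of each genotype. Nodal dropped from 87.9 to 103 FPM in WT at 0 h to 7.18 to 8.6 at 4 h and 6.02 to 12.6 at 8 h, while Lefty2 read 165 and 177 FPM at 4 h.

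The single libraries show the contrast. Nodal read 8.6 and 7.18 FPM at 4 h and 12.6, 6.02, 11.8 and 7.04 FPM at 8 h in WT, all far under its 0 h libraries, so that nearly all the loss had come by 4 h. Lefty1 read 0.86 and 3.19 FPM at 4 h and 0, 2.01, 1.69 and 0 FPM at 8 h, at most a few reads. Lefty2, its neighbour and close paralog, read 165 and 177 FPM at 4 h, within the range of its 0 h libraries, and 87.9, 88.3, 97 and 125 FPM at 8 h. Tdgf1 read 296 and 294 FPM at 4 h and 215, 208, 212 and 193 FPM at 8 h, below its 0 h libraries throughout. The 95% intervals of the decay values of Lefty1 (-4.40 to -2.57) and Lefty2 (-1.06 to -0.58) did not overlap.

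The Id genes and Smad7 were also lower at 4 h. Id3 read 4.3 and 4.79 FPM at 4 h and 2.28, 3.01, 5.06 and 9.68 FPM at 8 h in WT. Id1 read 8.6 and 3.19 FPM at 4 h and 2.28 to 6.16 at 8 h, and Id2 0 and 3.19 FPM at 4 h and 0 to 2.64 at 8 h. Smad7 read 9.47 and 7.18 FPM at 4 h and 1.14 to 6.02 at 8 h. All these libraries lay below those of 0 h. For Skil the groups overlapped, since 1 library at 0 h read 2.35 FPM, and Smad6 was at 0 FPM in both WT libraries of 4 h.

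Apparent half-lives over 8 h, relative to the library total, were computed by replicate. They use the ratio of mean FPM at 8 h to that at 0 h, without the 1 added for the decay values. For members with few reads they are therefore shorter than the decay values would give. Lefty1 had 1.81 h (A) and 1.87 h (B) in WT, Nodal 2.38 and 2.41 h, Id2 2.07 and 2.79 h, Id3 2.22 and 3.44 h, Id1 2.56 and 3.62 h, Smad7 2.81 and 2.93 h and Skil 2.09 and 2.79 h. Lefty2 had 7.91 and 12.6 h, and Tdgf1 11.6 h in both. Nodal was as low at 4 h as at 8 h, so its half-life over 8 h is longer than one over the first 4 h would be. For Id2 and Id3 the WT libraries of 4 h and 8 h also overlapped, at few reads, so the same may hold for them. At 8 h the fast genes rest on a few reads, which limits the precision of their half-lives.

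In the knockouts Lefty2 and Tdgf1 again had the decay values nearest 0. All 9 members tested fell by 8 h in Ythdf1_KO, where 54.5% of all genes were lower, in Ythdf2_KO (62.6%), in Ythdf3_KO (59.6%) and in Triple_KO (25.8%). The median decay value of the members was -2.70, -2.50, -2.19 and -1.88, beside -0.77, -0.91, -0.83 and -0.39 for all genes. Nodal had decay values of -3.05 in Ythdf1_KO, -3.91 and -3.84 in Ythdf2_KO and Ythdf3_KO and -3.13 in Triple_KO, each ± 0.27, the lowest of the members in Ythdf2_KO, Ythdf3_KO and Triple_KO. In Triple_KO 0.0991% of all genes had a lower value than Nodal, a rank that also depends on the level at 0 h. Lefty2 had -0.95 to -0.71 in the single knockouts and -0.40 in Triple_KO, and Tdgf1 -1.09 to -0.95 in the single knockouts and -0.49 in Triple_KO. The split was less clear for Skil, whose fall in Ythdf1_KO did not pass with edgeR (adjusted p = 0.07774). Skil was left at 60.1% in Ythdf1_KO replicate A (Tdgf1 at 46.6%) and at 0% in replicate B. That 60.1% rests on 1 library with 4 reads, while its duplicate held 0. In Triple_KO the interval of Skil, -2.58 to -0.37, held the values of Lefty2 and Tdgf1. For the slow members the direction depends on the scaling: scaled to the median of the genes tested, the 8 h decay values of Lefty2 and Tdgf1 were positive in all 5 genotypes (0.042 to 0.46).

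**Figure D4:**
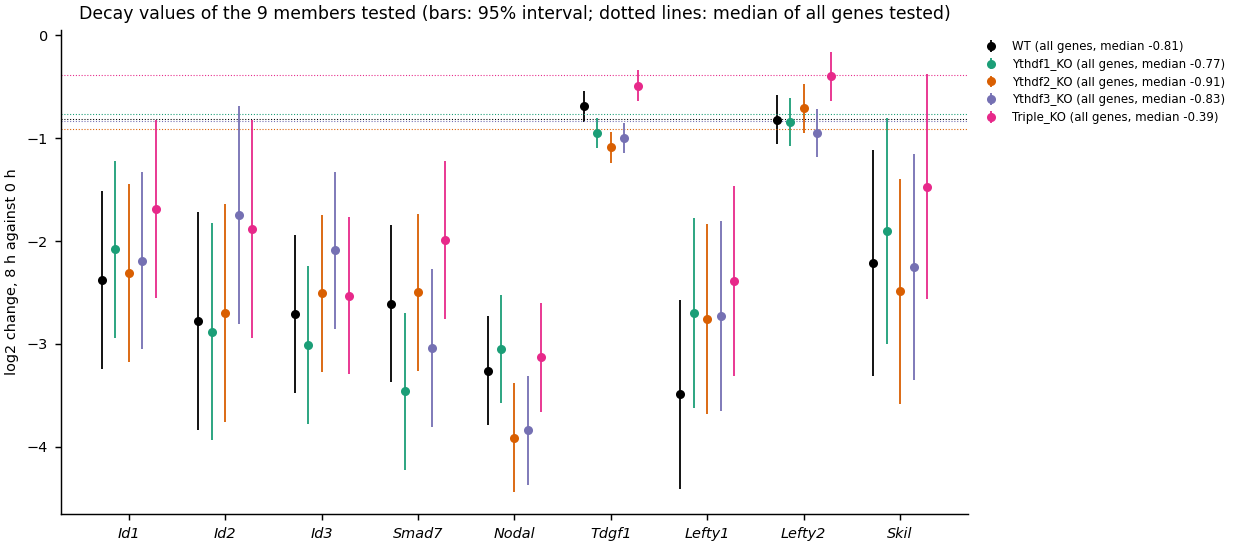
Decay values, the log2 change from 0 h to 8 h (vertical axis), of the 9 genes tested (horizontal axis) in the 5 genotypes, with 95% intervals; dotted lines mark the median of all genes in each genotype. Tdgf1 and Lefty2 sit near those lines, between -1.09 and -0.40, and the other 7 genes sit between -3.91 and -1.47.

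At 4 h the number of members that had fallen was 6 of 9 in WT, where 27.3% of all genes were lower, 7 each in Ythdf1_KO (24.9%) and Ythdf2_KO (22.6%), 9 in Ythdf3_KO (28.6%) and 5 in Triple_KO (7.67%). Nodal, Lefty1, Id1, Id3 and Smad7 were called in each of the 5. Nodal had changes between -3.68 and -2.99 at 4 h. Tdgf1 fell by 0.21 to 0.33 at 4 h in the single knockouts and had -0.17 ± 0.076 in WT (limma adjusted p = 0.07183) and -0.087 ± 0.076 in Triple_KO (adjusted p = 0.5636). Those 4 h falls of Tdgf1 turned positive with the TMM, median and edgeR scalings.

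Whether the decay itself differed in a knockout was tested as the difference between its decay value and that of WT. None of the 9 members passed in any of the 4 knockouts: 0 in Ythdf1_KO, where 0.0441% of all genes passed, 0 in Ythdf2_KO (0.176%), 0 in Ythdf3_KO (0.330%) and 0 in Triple_KO (7.24%), by limma and by edgeR alike. At an unadjusted p under 0.05 there was 1 member in each: Tdgf1 in the single knockouts and Lefty2 in Triple_KO, while 5.18, 7.13, 6.16 and 19.6% of all genes had such a p in Ythdf1_KO, Ythdf2_KO, Ythdf3_KO and Triple_KO. Tdgf1 was left at 62 and 61.9% of its 0 h level after 8 h in WT (replicates A and B), at 46.6 and 57.4% in Ythdf1_KO, 44.5 and 48.8% in Ythdf2_KO and 49.8 and 50.2% in Ythdf3_KO. Both replicates of each single knockout were lower than both of WT. The differences in decay value were -0.26 ± 0.11 in Ythdf1_KO (limma adjusted p = 0.884), -0.41 ± 0.11 in Ythdf2_KO (adjusted p = 0.1331) and -0.31 ± 0.11 in Ythdf3_KO (adjusted p = 0.3533). Lefty2 was left at 49.6 and 64.4% in WT and at 75.6 and 75.9% in Triple_KO, a difference of 0.42 ± 0.17 (limma adjusted p = 0.1356). This lay close to the difference of the median gene, 0.37, and with edgeR, which scales by TMM, it was -0.0035.

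For the fast members the intervals of these differences were wide. In Triple_KO they ran from -0.61 to 0.88 for Nodal, -0.92 to 1.27 for Id3 and -0.59 to 2.39 for Id2. A change of 1 log2 unit in decay was therefore not excluded for Id3 or Id2. The intervals are not adjusted for the number of genes tested, and the adjusted test asks for a larger change, also for Nodal. The percent of library reads that lay in genes of the table was measured too, and went from 43.3 ± 0.655% at 0 h to 33.2 ± 0.266% at 8 h in WT and from 44.3 ± 0.721% to 41.1 ± 1.48% in Triple_KO (SD, n = 4 libraries); its part in the decay values was not tested.

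After 8 h, 2 of the 9 members differed between Triple_KO and WT, where 30.6% of all genes did. Id2 read 4.39, 4.33, 5.74 and 7.65 FPM in Triple_KO and 0, 2.01, 1.69 and 2.64 FPM in WT, without overlap, and rose by 1.46 ± 0.54 (limma adjusted p = 0.0315). This call rests on few reads and was lost with edgeR (adjusted p = 0.1098) and without WT replicate A (1.03), Triple_KO replicate A (1.71) or Triple_KO replicate B (1.20). At 4 h Id2 read 11 and 6.69 FPM in Triple_KO and 0 and 3.19 FPM in WT. Tdgf1 read 160, 146, 179 and 174 FPM in Triple_KO at 8 h against 193 to 215 FPM in WT, and fell by 0.33 ± 0.076 (adjusted p = 0.0004278); without Triple_KO replicate A the change was -0.23 and did not pass. Lefty2 had -0.059 ± 0.12 (limma adjusted p = 0.753), while edgeR called it lower, at -0.53 (adjusted p = 8.625e-06).

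The letters of the transcripts were set beside the decay values. ATTTA occurred in the 3′ UTR of 7 of the 10 members, as in 63.2% of 16812 genes. It occurred 14 times in Skil, a count reached by 2.1% of genes, 4 times in Smad7, 3 times in Id2, 2 times in Smad6, and 1 time each in Nodal, Lefty2 and Tdgf1. The 3′ UTR of Skil is long, at 3964 bases. Per kb it held 3.53, beside 4.46 in Smad6, 3.83 in Id2 and 2.55 in Smad7. Id1, Id3 and Lefty1 had 0, and all 3 were among the fast members. The longer word TATTTAT, held by 25.8% of genes, occurred in Id2 (2 times), Nodal, Smad6, Smad7 and Skil (1 time each). It was absent from the slow members Lefty2 and Tdgf1, and also from the fast members Id1, Id3 and Lefty1. An ATTTA within TATTTAT counts in both numbers, and only the sense strand was read. GGACT, a form of the m6A consensus, occurred 2 to 5 times in each member's transcript, 2 in Lefty1 and 3 in Lefty2, where the median gene had 3 and 90.1% had at least 1. Lefty1 has a 3′ UTR of 425 bases and Lefty2 of 1290 bases, beside a median of 884. A match describes the letters only.

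The RefSeq promoter table (GRCm38.p6, windows of 300 bases around the start) held Id2, Id3, Smad6, Nodal and Tdgf1. GGCGCC, a word bound by Smads of the BMP branch, was found 1 time in Id2 and in none of the other 4, and in 11.9% of 32851 promoters. CAGACA, a Smad-binding word read on both strands, was in none of the 5 and in 21% of promoters.

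The other genes of the pathway were followed as a list of 73, of which 72 were in the table and 35 passed the filter at 0 h. In Ythdf1_KO 1 rose and 0 fell. In Ythdf2_KO 4 fell and 0 rose. Among them the ligand gene Bmp4 fell by 0.95 ± 0.21 (limma adjusted p = 0.0002665) and Ltbp4, which encodes a latent TGF-beta binding protein, by 0.60 ± 0.13, and Zfp423 fell too. In Ythdf3_KO 2 fell, the co-receptor gene Eng by 0.53 ± 0.17 and Ltbp4 by 0.47 ± 0.13. In Triple_KO 4 rose and 5 fell. The shares called, 2.86, 11.4, 5.71 and 25.7%, lay near the 2.62, 8.20, 4.46 and 21.9% of all genes. Median changes of the list were -0.055, -0.052, -0.17 and 0.052, beside the medians of all genes given above.

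Bmp4 encodes a ligand of the branch that drives the Id genes. Its mean was highest in WT (27.9 ± 7.32 FPM) and Ythdf1_KO (24.7 ± 2.71), then came Ythdf3_KO (18.9 ± 4.03), Ythdf2_KO (13.7 ± 2.71) and Triple_KO (11.9 ± 4.32; SD, n = 4 libraries). It fell by 1.18 ± 0.21 in Triple_KO (limma adjusted p = 7.085e-07) and by 0.64 ± 0.17 against the single knockouts (adjusted p = 0.001667). In Ythdf2_KO Bmp4 and Id3 both fell, and in Triple_KO Bmp4 and Id1 fell while Id3 rose. These Id1 and Id3 calls have the limits given above, and a link between Bmp4 and the Id genes was not tested. Ltbp4 fell from 62.6 ± 2.48 FPM in WT to 32.7 ± 3.52 in Triple_KO, by 0.92 ± 0.13 (adjusted p = 1.23e-09). Furin, which encodes a protease that cleaves ligand precursors, rose by 0.81 ± 0.28 in Triple_KO (adjusted p = 0.02603).

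In the time courses 37 pathway genes passed the filter. By 8 h 27 had fallen and 2 had risen in WT, and 23, 24, 22 and 14 had fallen in Ythdf1_KO, Ythdf2_KO, Ythdf3_KO and Triple_KO. The share lower was 73% in WT and 62.2, 64.9, 59.5 and 37.8% in the knockouts, beside 55.2, 54.5, 62.6, 59.6 and 25.8% of all genes. Over all genes that share depends on the scaling, as given above for WT. The median of the list in WT was -1.33. Bmp4 was lost about as fast as the fast members, with a decay value of -2.91 ± 0.42 in WT, as was Tgif1, a repressor of Smad signalling, with -2.88 ± 0.20 (107 ± 12.4 FPM at 0 h, 14.7 ± 6.67 at 8 h). Tob1, an inhibitor of BMP Smads, had -1.98 ± 0.50. At 4 h 12 had fallen in each of WT, Ythdf1_KO and Ythdf2_KO, 9 in Ythdf3_KO and 5 in Triple_KO. These shares were 32.4, 32.4, 32.4, 24.3 and 13.5%, beside 27.3, 24.9, 22.6, 28.6 and 7.67% of all genes.

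Of the pathway genes outside the 10, 2 passed the test of a decay difference, both in Triple_KO, a share of 5.41% beside 7.24% of all genes. Over all genes 655 of these differences were higher and 2 lower, and 65 and 109 with median scaling. Tgif1 had a difference of 1.33 ± 0.29 (limma adjusted p = 0.001011) and stood at 32.9 ± 4.72 FPM after 8 h in Triple_KO against 14.7 ± 6.67 in WT, from similar levels of 97.6 ± 10.5 and 107 ± 12.4 FPM at 0 h. Gdf3, a ligand that uses the same co-receptor as Nodal, had 0.58 ± 0.16 (adjusted p = 0.01327), beside 0.37 for the median gene, and stood at 118 ± 9.73 against 62.5 ± 10.8 FPM after 8 h. At 8 h 7 pathway genes were higher and 1, Ltbp4, was lower in Triple_KO than in WT, a share of 21.6% beside 30.6% of all genes. Over all genes 2653 were higher and 122 lower there, and 692 and 1066 with median scaling.

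The genes most like each member were sought by their pattern over the 15 genotype-by-time group means, after the mean of the 5 genotypes at each time was subtracted. For Tdgf1 they were Fblim1 and Hmga1b (Pearson r = 0.95 each), for Id2 Wnk1 (0.92) and Wtap (0.91), for Smad7 Ipo9 (0.93), for Id1 Manba (0.90) and for Nodal Arl8a (0.90), out of 4035 or 4036 candidates, so high values are found by search alone. Among the members themselves Id1 and Lefty2 had r = 0.69, Id2 and Id3 0.60, Id1 and Id3 -0.27, and Lefty1 and Lefty2 -0.02 over the same 15 means, which share libraries and depth.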

How the data were processed

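The submitters' processing notes name Bowtie2, CASAVA 1.8.2 and the mm10 build. The values the authors deposited are FPM (equal to RPM): 3′ end reads of a RefSeq transcript relative to all reads of the library, without length correction. Strand use and the handling of multiple matches are not given in the sources used here. Across 50 libraries, 100% of values were whole reads within 0.1 read. Names came from RefSeq (GRCm38.p6) for 21729 of 22338 transcripts and from GENCODE M21 for 120, and 489 had none; 2169 identical repeats were dropped and distinct transcripts summed in 652 genes.

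Duplicate libraries were averaged as log2(FPM + 1), so n = 2 per group. A gene was tested if 2 or more replicate means reached 5 FPM. The test was limma 3.58 in R 4.3 (mean-variance trend, Benjamini-Hochberg threshold 0.05), on the 10 replicate means of 0 h or, for decay, on all 30. Its spread for a gene is drawn toward that of genes of like level, so small p-values at n = 2 rest in part on other genes. All p-values in the text with an adjusted p are from that fit unless edgeR 4.0 (quasi-likelihood, recovered reads, duplicates summed, TMM) is named. Errors of FPM are SD over libraries, those of changes standard errors. The scripts were tested on simulated data.

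The members, the pathway and marker lists and the tests were chosen with earlier results of these data known. The genes named are all 10 members, up to 3 called pathway genes per comparison with the largest change and a mean of at least 10 FPM in a group compared (others are named where their number is given, and 1 is not reported here), and the 2 genes of most alike pattern with at least 20 FPM at 0 h. No protein sequences were analysed here. Alternatives were a pseudocount of 0.25, no filter, median and TMM scaling, edgeR, a replicate block, the highest transcript only, a fit on all times, and leaving out each replicate.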

Additional observations from a re-analysis of the deposited data

Results flagged for a closer look

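In 8 of 100 groups of 4 libraries 1 library stood apart from the other 3, where the rule is built to mark about 1 in 20 by chance for continuous values; the Smad6 and Skil values are of a few reads, to which that rate may not apply. Id1 in Ythdf2_KO at 0 h had 1 library at 15.3 FPM, with the others at 19.9 to 20.4. Id3 in Ythdf2_KO at 8 h had 1 at 1.82 FPM, with the others at 3.25 to 3.31. Nodal in Triple_KO at 8 h had 1 at 18.8 FPM, with the others at 8.29 to 9.42. Smad6, read at few counts, had 1 library at 5.09 FPM in Ythdf1_KO at 0 h (others 0.695 to 1.28), 1 at 1.02 FPM in Ythdf3_KO at 0 h (others 0.526 to 0.581) and 1 at 0 FPM in Triple_KO at 8 h (others 0.638 to 0.732). Skil had 1 library at 4.17 FPM in Ythdf1_KO at 8 h, with the others at 0, and 1 at 0 FPM in Ythdf2_KO at 8 h, with the others at 0.812 to 0.828.

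Triple_KO differed from the mean of the 3 single knockouts, by a limma test of that difference at 0 h, for 4 members. The log2 differences were -0.81 for Tdgf1 (adjusted p = 3.527e-48), -0.39 for Lefty2 (adjusted p = 3.376e-08), 1.04 for Id2 (adjusted p = 3.505e-06) and 0.70 for Id3 (adjusted p = 1.686e-06). This comparison was added after the values were seen.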

How the results depend on the processing

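Of 1881 recomputed member changes, 1657 kept their side of the threshold and direction, 86 were past it in neither fit with another sign, 94 lost the call, 13 gained it and 31 reversed. The reversals were of Lefty2 and Tdgf1 in the time course, and the cause was not tested. With median scaling Lefty2 at 8 h was 0.23, 0.15, 0.46, 0.14 and 0.20 and Tdgf1 0.36, 0.042, 0.084, 0.084 and 0.11 in WT, Ythdf1_KO, Ythdf2_KO, Ythdf3_KO and Triple_KO; at 4 h, in the first 4 of these, Lefty2 was 0.53, 0.47, 0.39 and 0.19 and Tdgf1 0.38, 0.34, 0.27 and 0.24. With edgeR Tdgf1 was 0.091 at 8 h in WT and 0.22, 0.16, 0.056 and 0.068 at 4 h in those 4, and Lefty2 0.21 at 8 h in Ythdf2_KO and 0.38, 0.30 and 0.027 at 4 h in WT, Ythdf1_KO and Ythdf3_KO. With TMM scaling Lefty2 was 0.089 at 8 h in Ythdf2_KO and Tdgf1 0.10, 0.0088 and 0.034 at 4 h in the single knockouts.

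Counts of members called moved as follows. At 0 h, Ythdf1_KO had 1 with TMM and 0 to 1 without 1 replicate. With the fit on all times Ythdf2_KO had 0 and Triple_KO had 2, against WT and against the single knockouts, and without 1 replicate Triple_KO against WT had 2 to 4. At 8 h, median scaling left 5 in Ythdf3_KO and 4 in Triple_KO, and leaving out a Triple_KO replicate 4 to 5. At 4 h Triple_KO had 2 without replicate A. Triple_KO against WT at 8 h had 1 with a pseudocount of 0.25 or no filter, and 0 to 2 without 1 replicate. With edgeR the counts at 8 h were 7 in WT, Ythdf1_KO and Triple_KO and 8 in Ythdf3_KO, at 4 h 8, 6, 6 and 7 in WT, Ythdf2_KO, Ythdf3_KO and Triple_KO, in either direction, and at 0 h 3 for Triple_KO against WT and 5 against the single knockouts. Among all genes at 0 h in Triple_KO 1241 were higher and 665 lower, and 850 and 1003 with median scaling. The replicate letters shared only a name: same-letter deviations had correlations of -0.05 to 0.05, and with the replicate block the Triple_KO count at 0 h was 4 and no count changed.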
